A study of Glycine max with 12 samples.

Results

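Seeds of a soybean (Glycine max) overexpressor of GmNFYA were compared with wild-type Jack seeds across every expressed gene, with 3 RNA-seq libraries from each of these genotypes out of 12 in the series. GmNFYA is a subunit of nuclear factor Y. The labels call the overexpressor transgenic and put both genotypes at the seed stage H3, and neither the meaning of H3 nor the promoter driving the transgene is given in the sources used here. By genotype, 3 libraries came from the GmNFYA overexpressor, 3 each from overexpressors of the zinc finger genes GmZF351 and GmZF392, and 3 from the wild type, all at that stage. The deposited table holds 47095 genes, of which 34252 had enough counts to be tested. Of the tested genes 1690 carried a RefSeq symbol and 32562 were known only by a Glyma identifier.

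Nuclear factor Y is a trimer of an NF-YA, an NF-YB and an NF-YC subunit that binds the CCAAT box of promoters. NF-YA makes the base contacts, while NF-YB and NF-YC provide a histone-like dimer. In seeds the best known relative is LEC1, an NF-YB-type protein that drives embryo development and the filling of the embryo with oil and storage protein. The GmNFYA gene itself is known as a regulator of seed oil.

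Values are CPM, that is counts scaled to a common library size with TMM factors, and log2 fold changes are GmNFYA overexpressor over wild type with their standard error (SE). Adjusted p-values are Benjamini-Hochberg values of edgeR's quasi-likelihood test over all 34252 genes, with all 12 libraries in 1 fit. "Rose", "fell", "higher" and "lower" are used of a tested difference only where the adjusted p was below 0.05. Whether libraries 1 to 3 of a genotype are different plants is not in the labels, and the p-values reflect the spread between libraries, which may be technical. The 3 overexpressor libraries share a line code and may come from a single transgenic line, so effects of the line and of the gene cannot be told apart. In whole seeds, fewer cells of a type and less RNA per cell cannot be told apart either.

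Library 1 stood apart within both genotypes. In the GmNFYA overexpressor, library 1 differed from libraries 2 and 3 by a chi-square of 26.0 and 30.3 per gene, and libraries 2 and 3 differed from each other by 2.27. In the wild type, library 1 differed from libraries 2 and 3 by chi-squares of 20.7 and 18.03, and libraries 2 and 3 differed by 5.90. Deviations from the genotype mean also followed exon length, and this was not confined to library 1. Their Spearman correlations with exon length were 0.458, -0.279 and -0.459 in GmNFYA overexpressor libraries 1, 2 and 3. In wild-type libraries 1, 2 and 3 they were 0.111, -0.369 and 0.199. The libraries held 18602162, 19546673 and 20635249 counted fragments in the GmNFYA overexpressor and 19270208, 22652420 and 17902216 in the wild type. A count of 0 allows up to 3 fragments, which is 0.136 to 0.166 CPM in these libraries and covers counting error only.

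GmNFYA (Glyma.02G303800, named NF-YA02 in RefSeq, at chromosome 2, 49719199 to 49723036, minus strand) was higher in its overexpressor. It had 268, 328 and 329.6 CPM in the GmNFYA overexpressor, against 43.4, 40.6 and 41.5 CPM in the wild type, so the 2 genotypes did not overlap. The difference was 7.37-fold (log2 2.88, SE 0.15, adjusted p = 1.1e-07). The counts do not separate transgene fragments from those of the endogenous gene. The list of nuclear factor Y genes holds those with an NF-YA, NF-YC or LEC1 symbol, since no other NF-YB-type symbol was paired, and 5 of its 31 genes were not tested. Nuclear factor Y genes known only by a Glyma identifier were not looked for. Of 26 tested genes with an NF-Y or LEC1 symbol, NF-YA02 was the 1 that rose and 0 fell, with the edgeR test, and NF-YA02 was also the only 1 of the 26 with an unadjusted p below 0.05. The median log2 fold change of the list was -0.08, against -0.0090 for all tested genes. LEC1-A stood at 194 CPM in the GmNFYA overexpressor and 186 CPM in the wild type, and LEC1-B at 385 CPM in the GmNFYA overexpressor and 329 CPM in the wild type (log2 0.23, adjusted p = 0.535). Of the likely partner subunits, NF-YC14 stood at 61.8 CPM in the GmNFYA overexpressor and 68.9 CPM in the wild type (adjusted p = 0.707), and NF-YC13 at 59.01 CPM in the GmNFYA overexpressor and 62.04 CPM in the wild type (adjusted p = 0.837).

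Across the genome 536 genes differed, which is 1.56% of those tested. Of these 331 were higher in the GmNFYA overexpressor (0.966%) and 205 lower (0.599%). The libraries of the 2 genotypes did not overlap for any of the 536, and they did not overlap for 21.9% of all tested genes. The median fold was 2.40 among genes that rose and 2.27 among genes that fell, and 361 genes differed by 2-fold or more. Genes that rose had a median of 12.2 CPM in the GmNFYA overexpressor and 4.33 CPM in the wild type. Genes that fell had a median of 4.98 CPM in the GmNFYA overexpressor and 10.9 CPM in the wild type. Most of what differed has no symbol. Glyma identifiers alone name 470 of the 536 genes, 291 of them higher and 179 lower, and 75 of the 536 had no RefSeq partner at all. Among genes with a symbol 40 rose and 26 fell. The share that differed was 3.91% of genes with a symbol and 1.44% of genes without one, and their median levels were 16.7 CPM and 11.6 CPM over both genotypes. Of the 77 genes that differed by 8-fold or more 71 had no symbol (92.2%), while 95.1% of all tested genes have none. Of these 77, 46 were higher and 31 lower.

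**Figure D1:**
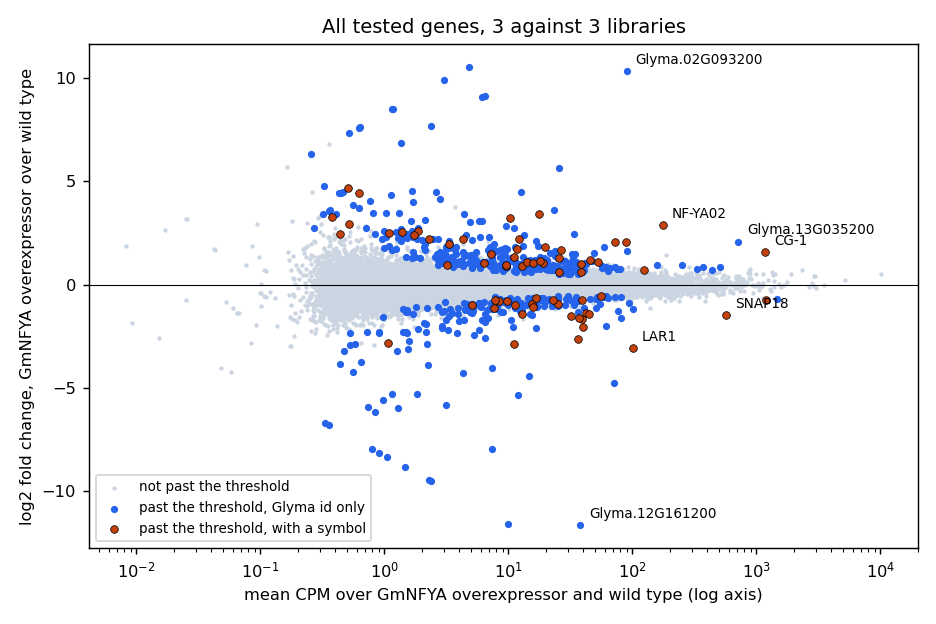
Log2 fold change (vertical axis) against mean CPM of both genotypes (horizontal log axis) for the 34252 tested genes. Blue points are the 470 called genes with a Glyma identifier only, orange points the 66 called genes with a symbol, and the blue points reach the largest folds at both ends.

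The number of calls was smaller whichever 1 of the 6 libraries was left out. It was 385, 300 and 335 without GmNFYA overexpressor library 1, 2 or 3, and 355, 300 and 338 without wild-type library 1, 2 or 3. In total 245 genes, 160 higher and 85 lower, were called in the fit with all libraries and in all 6 of these fits. Of the 245 genes 206 have no symbol, where 95.1% of all tested genes have none. The count was 1012 with the DESeq2 Wald test and 815 when a trend of each library with exon length was removed.

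Among genes with fragments in all wild-type libraries, Glyma.02G093200 gave the largest fold rise (chromosome 2, 8232345 to 8234800, minus strand). It had 166, 189 and 184 CPM in the GmNFYA overexpressor, against 0.196, 0.136 and 0.0552 CPM in the wild type. The overexpressor libraries lay close together, and each of the wild-type libraries was at or near the level that a count of 0 allows. The zinc finger overexpressors were also below 1 CPM, with 0.435 ± 0.31 CPM under GmZF351 overexpression and 0.0342 ± 0.0297 CPM under GmZF392 overexpression. It was higher than in the wild type (log2 10.34, SE 0.38, adjusted p = 1.1e-08) and than in both zinc finger overexpressors (adjusted p = 1.1e-08 against GmZF351 and 8.6e-09 against GmZF392).

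Glyma.02G084350 and Glyma.02G084400 lie end to end on the plus strand of chromosome 2, at 7310367 to 7311319 and 7311320 to 7312850, and rose together. Glyma.02G084350 had 21.7, 26.3 and 24.7 CPM in the GmNFYA overexpressor, against 0.638, 1.22 and 1.43 CPM in the wild type (log2 4.46, SE 0.36, adjusted p = 1.0e-05). Glyma.02G084400 had 26.9, 49.97 and 53.2 CPM in the GmNFYA overexpressor, against 2.8, 3.17 and 4.8 CPM in the wild type (log2 3.60, SE 0.27, adjusted p = 5.9e-06). In both genes the genotypes were far apart, although library 1 of the overexpressor was the lowest of its 3. Glyma.02G084350 stood at 1.66 ± 0.686 CPM under GmZF351 overexpression and 0.889 ± 0.561 CPM under GmZF392 overexpression, and Glyma.02G084400 at 3.84 ± 0.572 CPM under GmZF351 overexpression and 2.36 ± 0.284 CPM under GmZF392 overexpression. Both genes were higher in the GmNFYA overexpressor than in either of them (adjusted p from 2.9e-06 to 6.2e-05). Because the spans touch and no strand option is recorded for the counting, fragments across the border could be counted to neither gene or to one of them.

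Glyma.02G093200, Glyma.02G084350 and Glyma.02G084400 belong to a group that set the GmNFYA overexpressor apart from all 3 other genotypes. The contrasts with the wild type and with the zinc finger overexpressors share the GmNFYA libraries, while the contrasts with the zinc finger overexpressors use no wild-type library. Directly, 376 genes (1.1%) differed from the GmZF351 overexpressor and 364 (1.06%) from the GmZF392 overexpressor. Of the 331 genes that rose against the wild type, 42 were also higher than in the GmZF351 overexpressor and 34 than in the GmZF392 overexpressor. The number higher than in both was 24 (0.0701% of tested genes). Only NF-YA02 among these has a symbol, where 95.1% of all tested genes have none. Of the 24 genes 13 were called against the wild type in all 6 fits that leave out 1 library. The 24 became 15, 11 and 11 without GmNFYA overexpressor library 1, 2 or 3, 13 without wild-type library 2 and 15 without GmZF351 overexpressor library 3.

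Further members of this group were Glyma.03G134800 (chromosome 3, 36204486 to 36207312, plus strand), Glyma.06G289000, Glyma.10G113000 and Glyma.13G048500, the last 3 chosen for mention after their values were seen. Glyma.03G134800 had 11.9, 10.5 and 10.7 CPM in the GmNFYA overexpressor, against 1.42, 0.861 and 1.71 CPM in the wild type (log2 3.06, SE 0.27, adjusted p = 3.0e-05). It was intermediate in the other lines, with 3.48 ± 0.743 CPM under GmZF351 overexpression and 3.75 ± 1.09 CPM under GmZF392 overexpression (adjusted p = 0.00462 against GmZF351 and 0.00532 against GmZF392). Glyma.06G289000 had 59.1, 80.3 and 80.2 CPM in the GmNFYA overexpressor, against 22.5, 27.4 and 26.3 CPM in the wild type (log2 1.53, SE 0.15, adjusted p = 6.3e-05), and it stood near the wild-type level in both zinc finger overexpressors, with 27.6 ± 2.13 CPM under GmZF351 overexpression and 25.3 ± 2.38 CPM under GmZF392 overexpression. Glyma.13G048500 had 26.3, 26.03 and 28.9 CPM in the GmNFYA overexpressor, against 6.92, 5.8 and 6.34 CPM in the wild type (log2 2.09, SE 0.13, adjusted p = 1.3e-06), with 15.2 ± 1.14 CPM under GmZF351 overexpression and 15.8 ± 1.24 CPM under GmZF392 overexpression, between the other genotypes. Glyma.10G113000 was at 0 in all 6 zinc finger libraries. It had 3.02, 3.19 and 1.85 CPM in the GmNFYA overexpressor, against 0, 0 and 0.0552 CPM in the wild type (adjusted p = 0.00125).

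In the opposite direction, Glyma.12G161200 (chromosome 12, 30245133 to 30251896, minus strand) was all but missing from the GmNFYA overexpressor. It had 0, 0 and 0.0499 CPM in the GmNFYA overexpressor, against 94.6, 75.3 and 56.7 CPM in the wild type (adjusted p = 2.1e-08). A single fragment was counted over the 3 overexpressor libraries. Both zinc finger overexpressors were at the wild-type level, with 67.8 ± 16.1 CPM under GmZF351 overexpression and 77.4 ± 13.8 CPM under GmZF392 overexpression, and the direct differences passed as well (adjusted p = 2.2e-08 against GmZF351 and 2.6e-08 against GmZF392). Glyma.05G011200 (chromosome 5, 984276 to 984963, plus strand) had 0.922, 1.15 and 1.75 CPM in the GmNFYA overexpressor, against 30.96, 29.6 and 23.6 CPM in the wild type (log2 -4.45, SE 0.36, adjusted p = 1.0e-05). Glyma.05G005200 (chromosome 5, 451479 to 454095, minus strand) had 0.154, 0.575 and 0.499 CPM in the GmNFYA overexpressor, against 9.66, 7.88 and 6.95 CPM in the wild type (log2 -4.30, SE 0.35, adjusted p = 1.0e-05). Neither gene overlapped between the genotypes. Glyma.05G011200 stood at 77.998 ± 29.5 CPM under GmZF351 overexpression and 31.4 ± 11.4 CPM under GmZF392 overexpression, and Glyma.05G005200 at 8.78 ± 2.5 CPM under GmZF351 overexpression and 8.32 ± 1.38 CPM under GmZF392 overexpression.

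Of the 205 genes that fell against the wild type, 46 were also lower than in the GmZF351 overexpressor, 45 than in the GmZF392 overexpressor and 35 than in both (0.102%). The 35 became 20 without GmNFYA overexpressor library 2, and 30 of them were called against the wild type in all 6 fits that leave out 1 library. Here 25 of the 35 have no symbol, where 95.1% of all tested genes have none. The 10 with a symbol include sugar transporters, a metal transporter and transcription factors. DMT1, a metal transporter of the NRAMP family, had 9.38, 10.1 and 10.8 CPM in the GmNFYA overexpressor, against 62.9, 57.9 and 68.2 CPM in the wild type. The GmNFYA overexpressor lay far below the wild type in every library. DMT1 stood at 103 ± 14.1 CPM under GmZF351 overexpression and 80.7 ± 4.51 CPM under GmZF392 overexpression, and the direct differences were log2 -3.35 against GmZF351 (adjusted p = 3.2e-08) and -3.0004 against GmZF392 (adjusted p = 1.2e-07).

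SWEET proteins are sugar exporters that carry sucrose from the maternal tissue towards the embryo during seed filling. SWEET21 had 14.5, 17.5 and 14.6 CPM in the GmNFYA overexpressor, against 59.9, 67.001 and 65.3 CPM in the wild type, and its direct differences were log2 -2.14 against the GmZF351 overexpressor (adjusted p = 3.2e-06) and -1.88 against the GmZF392 overexpressor (adjusted p = 7.0e-06). For SWEET11 they were log2 -1.60 against the GmZF351 overexpressor (adjusted p = 6.4e-05) and -1.28 against the GmZF392 overexpressor (adjusted p = 3.2e-04), and for SWEET15 log2 -1.05 against the GmZF351 overexpressor (adjusted p = 0.00121) and -0.78 against the GmZF392 overexpressor (adjusted p = 0.00818). These 3 were thus lower in the GmNFYA overexpressor than in each of the other genotypes. SWEET10 and SWEET4, which also fell against the wild type, did not pass against either zinc finger overexpressor (adjusted p from 0.0661 to 0.221). Both calls against the wild type ended in at least 5 of the 6 fits without 1 library, with adjusted p up to 0.157 for SWEET10 and up to 0.22 for SWEET4.

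Among regulators lower than in both zinc finger overexpressors, DREB1 is a transcription factor of drought and cold response, and HSF-08 and HSF-03 are heat shock transcription factors. DREB1 had 13.9, 17.6 and 17.96 CPM in the GmNFYA overexpressor, against 43.02, 50.96 and 50.2 CPM in the wild type, and 49.02 ± 6.63 CPM under GmZF351 overexpression and 46.6 ± 3.53 CPM under GmZF392 overexpression (adjusted p = 8.3e-05 against GmZF351 and 9.6e-05 against GmZF392). HSF-08 had 5.28, 7.94 and 7.98 CPM in the GmNFYA overexpressor, against 17.1, 20.2 and 19.3 CPM in the wild type (log2 -1.42, SE 0.19, adjusted p = 9.8e-04). HSF-03 had 30.997, 28.3 and 29.4 CPM in the GmNFYA overexpressor, against 48.1, 50.96 and 49.7 CPM in the wild type (log2 -0.75, SE 0.12, adjusted p = 0.0046). No library of one genotype reached the range of the other for any of the 3 genes. Another heat shock factor moved the other way: HSF-20 had 3.64, 2.87 and 3.19 CPM in the GmNFYA overexpressor, against 0.638, 0.453 and 0.497 CPM in the wild type (log2 2.60, SE 0.31, adjusted p = 3.9e-04), and it did not pass against the zinc finger overexpressors (adjusted p = 0.0813 against GmZF351 and 0.541 against GmZF392).

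A larger set of strong differences did not separate the GmNFYA overexpressor from the zinc finger overexpressors. In 28 of the genes that rose, no wild-type library had more than 3 fragments, and 8 of these were at 0 in all of them. Of the 28 genes 25 did not differ from either zinc finger overexpressor and 2 were higher than in both. The remaining gene, Glyma.01G064800, chosen after its values were seen, was lower than in both. It had 0.615, 0.314 and 0.599 CPM in the GmNFYA overexpressor, against 0, 0 and 0 CPM in the wild type, and averaged 2.78 CPM under GmZF351 overexpression and 3.15 CPM under GmZF392 overexpression (adjusted p = 0.0023 against GmZF351 and 9.3e-04 against GmZF392). In 19 of the genes that fell, no GmNFYA overexpressor library had more than 3 fragments, and 9 of these were at 0. Of the 19 genes 17 did not differ from either zinc finger overexpressor and 2 were lower than in both. None of the 19 has a symbol and 25 of the 28 have none, near the 95.1% of all tested genes without one. In each set 15 of the genes were called in all 6 fits that leave out 1 library. An adjusted p above the threshold does not show that the overexpressors were alike, so their values are given side by side.

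Glyma.08G261500 (chromosome 8, 25796479 to 25798111, plus strand) had 12.7, 14.4 and 11.4 CPM in the GmNFYA overexpressor, against 0, 0 and 0.0552 CPM in the wild type (adjusted p = 1.0e-07). The zinc finger overexpressors held 14.4 ± 1.92 CPM under GmZF351 overexpression and 17.1 ± 4.3 CPM under GmZF392 overexpression. Glyma.16G211400 (chromosome 16, 37241525 to 37256386, plus strand) had 15.3, 10.1 and 11.6 CPM in the GmNFYA overexpressor, against 0, 0 and 0.0552 CPM in the wild type (adjusted p = 6.6e-08), with 11 ± 1.35 CPM under GmZF351 overexpression and 13.7 ± 1.39 CPM under GmZF392 overexpression. Both genes thus had 1 fragment over the 3 wild-type libraries and 10 CPM or more in each overexpressor library of GmNFYA. Glyma.08G273000 (chromosome 8, 35178545 to 35185784, plus strand) was at 0 in the wild type. It had 6.71, 4.81 and 6.74 CPM in the GmNFYA overexpressor, against 0, 0 and 0 CPM in the wild type, which is at least 40.7-fold higher when the wild type is set to the floor of 3 fragments per library (adjusted p = 1.2e-06). Glyma.13G027800 (chromosome 13, 5857624 to 5905747, plus strand) was low rather than absent in the wild type. It had 61.1, 43.5 and 46.7 CPM in the GmNFYA overexpressor, against 1.23, 0.634 and 1.21 CPM in the wild type (log2 5.63, SE 0.24, adjusted p = 2.1e-08), and stood at 53.3 ± 6.63 CPM under GmZF351 overexpression and 59.8 ± 2.02 CPM under GmZF392 overexpression.

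Among the genes that fell, Glyma.03G068900 (chromosome 3, 14322911 to 14324969, minus strand) was at 0 in all 9 overexpressor libraries. It had 0, 0 and 0 CPM in the GmNFYA overexpressor, against 23.5, 19.98 and 15.8 CPM in the wild type, at least 129-fold lower on the same floor (adjusted p = 3.6e-05). Glyma.03G067100 (chromosome 3, 15144577 to 15149095, minus strand) had 0, 0.105 and 0.0499 CPM in the GmNFYA overexpressor, against 13.6, 14.1 and 16 CPM in the wild type (adjusted p = 5.3e-06), and 0.0731 ± 0.0803 CPM under GmZF351 overexpression and 0.0728 ± 0.126 CPM under GmZF392 overexpression. Glyma.16G206100 (chromosome 16, 36874844 to 36875842, minus strand) kept a low level. It had 4.2, 5.33 and 5.79 CPM in the GmNFYA overexpressor, against 153, 136 and 127 CPM in the wild type (log2 -4.76, SE 0.30, adjusted p = 1.2e-06), and stood at 8.54 ± 2.76 CPM under GmZF351 overexpression and 6.43 ± 2.76 CPM under GmZF392 overexpression. Glyma.20G151700 (chromosome 20, 39031244 to 39033081, plus strand) had 0.666, 0.523 and 0.499 CPM in the GmNFYA overexpressor, against 26.9, 23.1 and 19.8 CPM in the wild type (log2 -5.35, SE 0.37, adjusted p = 2.7e-06). In each of these 4 genes the lowest wild-type library was far above the highest GmNFYA overexpressor library.

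**Figure D2:**
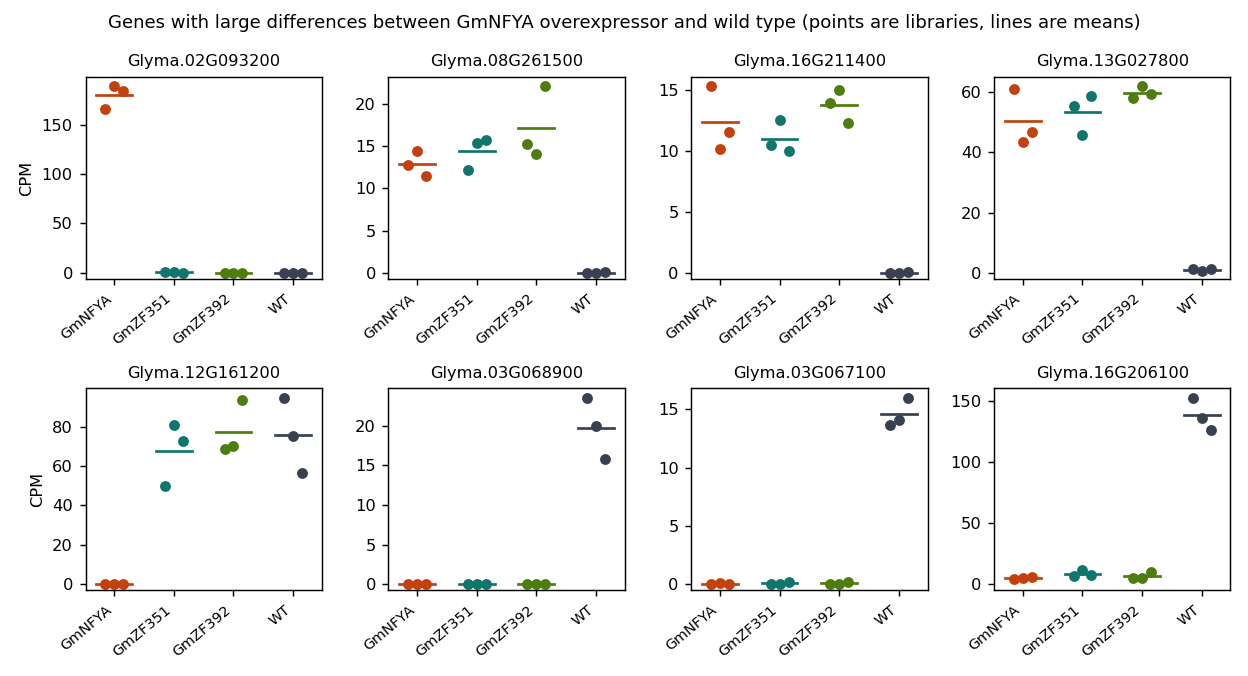
CPM per library (vertical axes, linear, 1 panel a gene) in the GmNFYA, GmZF351 and GmZF392 overexpressors and the wild type (WT), with a line at each mean of 3 libraries. The left column shows Glyma.02G093200, high in the GmNFYA overexpressor alone of the 4 genotypes, and Glyma.12G161200, near 0 there alone, while in the other 6 genes all overexpressors lie together and apart from the wild type.

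Genes that differed were unevenly placed on the chromosomes. On chromosome 18 the share was 3.09% and on chromosome 13 it was 2.23%, against 1.56% of all tested genes and 0.615% on chromosome 19. Of 489 windows of 2 Mb with tested genes, 250 held no gene that differed and 19 held 5 or more. The window of chromosome 3 from 14 to 16 Mb had the highest share among those 19, with 7 of 18 tested genes (38.9%), of which 6 fell and 1 rose. It holds Glyma.03G068900 and Glyma.03G067100, described above. Further genes of the window are given for their position. Glyma.03G070300 averaged 4.14 CPM in the GmNFYA overexpressor and 17.5 CPM in the wild type (adjusted p = 2.5e-05), and Glyma.03G066800, the gene that rose, 18.8 CPM in the GmNFYA overexpressor and 7.37 CPM in the wild type (adjusted p = 0.00165). The other 11 tested genes of the window did not pass, such as Glyma.03G068700 at 32.6 CPM in the GmNFYA overexpressor and 31.2 CPM in the wild type (adjusted p = 0.857). None of the 7 differed from either zinc finger overexpressor. Next by share came windows on chromosome 18 from 6 to 8 Mb (9 of 95), chromosome 13 from 12 to 14 Mb (6 of 70), chromosome 16 from 36 to 38 Mb (10 of 159) and chromosome 18 from 52 to 54 Mb (10 of 165). No test was made of these shares, and neighbouring genes are not independent.

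**Figure D3:**
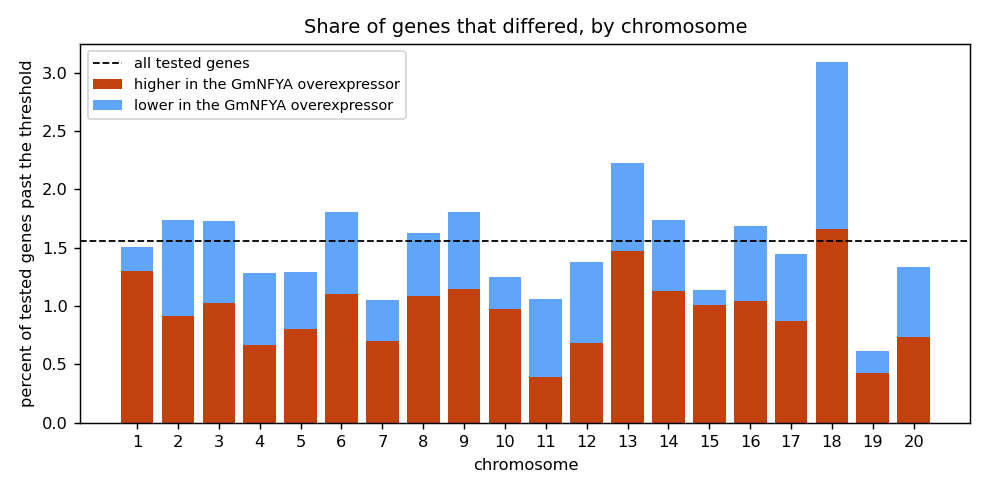
Percent of tested genes on each chromosome that were higher (orange) or lower (blue) in the GmNFYA overexpressor than in the wild type. The dashed line is the 1.56% of all tested genes, and chromosome 18 stands highest at 3.09%.

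One run of neighbours that fell on chromosome 18 holds the genes of Rhg1, the soybean locus of resistance to cyst nematode. In resistant varieties this locus is a tandemly repeated segment whose genes encode an amino acid transporter, an alpha-SNAP protein of vesicle fusion and a wound-inducible protein. Glyma.18G022400, which carries the RefSeq synonym Rhg1-GmAAT (chromosome 18, 1634531 to 1637713, minus strand), had 41.6, 39.6 and 38.1 CPM in the GmNFYA overexpressor, against 129, 112 and 122 CPM in the wild type (log2 -1.61, SE 0.13, adjusted p = 1.0e-05). SNAP18 (chromosome 18, 1639181 to 1643814, plus strand), the alpha-SNAP gene, had 286, 291 and 320.4 CPM in the GmNFYA overexpressor, against 987, 830.3 and 697 CPM in the wild type (log2 -1.49, SE 0.21, adjusted p = 0.00177). WI12 (chromosome 18, 1651098 to 1652076, plus strand), the wound-inducible gene, had 17.2, 17.8 and 20.5 CPM in the GmNFYA overexpressor, against 46.8, 62.02 and 59.4 CPM in the wild type (log2 -1.60, SE 0.17, adjusted p = 1.4e-04). In all 3 genes every overexpressor library lay below every wild-type library, and the fold differences of 3.04, 2.80 and 3.03 were close to each other.

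The same genes were lower than in both zinc finger overexpressors. Glyma.18G022400 stood at 123 ± 11.3 CPM under GmZF351 overexpression and 147 ± 3.07 CPM under GmZF392 overexpression, SNAP18 at 709 ± 164 CPM under GmZF351 overexpression and 816 ± 179 CPM under GmZF392 overexpression, and WI12 at 50.3 ± 10.7 CPM under GmZF351 overexpression and 68.9 ± 5.62 CPM under GmZF392 overexpression. The direct differences for SNAP18 were log2 -1.25 against the GmZF351 overexpressor (adjusted p = 0.01) and -1.45 against the GmZF392 overexpressor (adjusted p = 0.00261). For WI12 they were log2 -1.44 against the GmZF351 overexpressor (adjusted p = 6.9e-04) and -1.90 against the GmZF392 overexpressor (adjusted p = 4.4e-05), and for Glyma.18G022400 log2 -1.63 against the GmZF351 overexpressor (adjusted p = 1.7e-05) and -1.89 against the GmZF392 overexpressor (adjusted p = 3.5e-06). Between SNAP18 and WI12 lie Glyma.18G022551 and Glyma.18G022600, which did not pass. Glyma.18G022600 had 5.28, 4.39 and 4.19 CPM in the GmNFYA overexpressor, against 8.78, 7.61 and 4.74 CPM in the wild type (log2 -0.61, adjusted p = 0.316), and Glyma.18G022551 averaged 1.75 CPM in the GmNFYA overexpressor and 1.81 CPM in the wild type (adjusted p = 0.980). The flanking genes did not pass either. Glyma.18G022300 averaged 12.5 CPM in the GmNFYA overexpressor and 17.2 CPM in the wild type (adjusted p = 0.491), and Glyma.18G022800 8.32 CPM in the GmNFYA overexpressor and 8.82 CPM in the wild type (adjusted p = 0.901). Copies of the segment were not counted here, and fragments of repeated copies cannot be told apart in these counts.

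**Figure D4:**
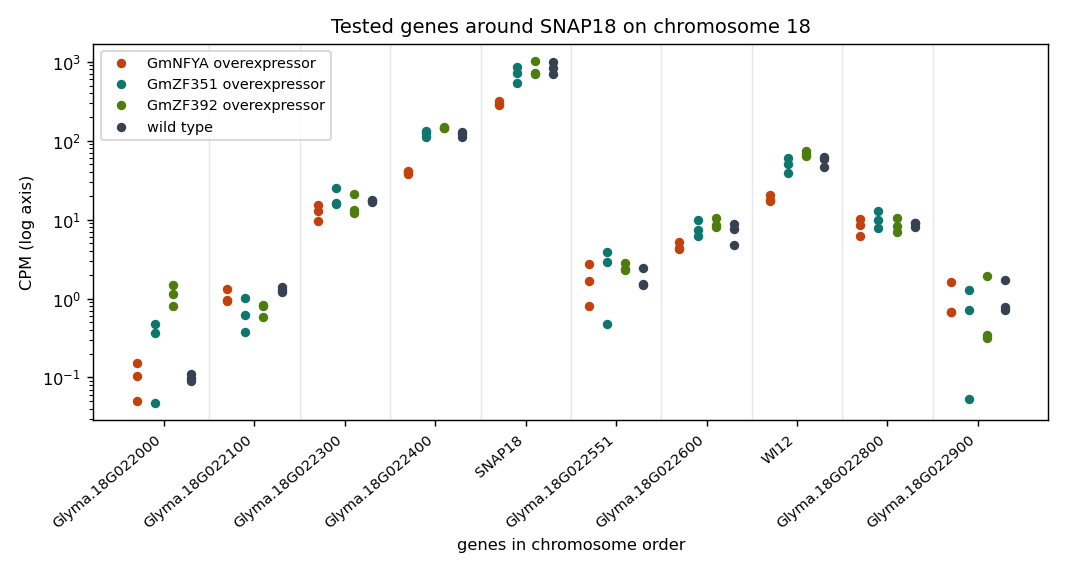
CPM per library (vertical log axis) for the 10 tested genes around SNAP18 in chromosome order, in the GmNFYA, GmZF351 and GmZF392 overexpressors and the wild type. The GmNFYA overexpressor lies below all other libraries for Glyma.18G022400, SNAP18 and WI12, and among them for Glyma.18G022300 and Glyma.18G022800.

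The other 7 runs of at least 3 called genes of the same direction, with at most 3 genes between neighbours, hold genes known only by identifiers. In total 8 runs hold 25 genes, with 6 runs higher and 2 lower. On chromosome 8, Glyma.08G317400, Glyma.08G317700, Glyma.08G317900 and Glyma.08G318000 rose within 43088286 to 43128773. Glyma.08G317700 had 2.92, 3.61 and 3.64 CPM in the GmNFYA overexpressor, against 1.18, 0.815 and 0.607 CPM in the wild type (log2 1.95, SE 0.27, adjusted p = 0.00134), and Glyma.08G317900 had 1.13, 1.1 and 1.5 CPM in the GmNFYA overexpressor, against 0, 0 and 0 CPM in the wild type, at least 8.30-fold higher (adjusted p = 0.00148). The call of Glyma.08G317400 ended without either of 2 libraries of each genotype (adjusted p up to 0.108). None of the 4 passed against a zinc finger overexpressor.

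On chromosome 13, the run of Glyma.13G094900, Glyma.13G095000 and Glyma.13G095200 rose, and its genes differed in how they stood to the zinc finger overexpressors. Glyma.13G095000 had 4.61, 4.13 and 3.44 CPM in the GmNFYA overexpressor, against 0.343, 0.906 and 1.43 CPM in the wild type (log2 2.19, SE 0.40, adjusted p = 0.0106), and 1.02 ± 0.531 CPM under GmZF351 overexpression and 21.2 ± 4.44 CPM under GmZF392 overexpression. It was therefore higher than in the GmZF351 overexpressor (adjusted p = 0.0278) and lower than in the GmZF392 overexpressor (adjusted p = 0.00155). Its call against the wild type ended without wild-type library 2 (adjusted p = 0.0602). Glyma.13G095200 had 15.7, 12.6 and 15.02 CPM in the GmNFYA overexpressor, against 4.71, 4.17 and 3.92 CPM in the wild type (log2 1.76, SE 0.19, adjusted p = 1.5e-04), and Glyma.13G094900 had 12.2, 13.1 and 14.1 CPM in the GmNFYA overexpressor, against 2.89, 5.16 and 4.19 CPM in the wild type (log2 1.68, SE 0.20, adjusted p = 3.2e-04). Glyma.13G094900 was lower than in the GmZF392 overexpressor (adjusted p = 0.0108) and did not pass against GmZF351 (adjusted p = 0.0661), and Glyma.13G095200 was higher than in the GmZF351 overexpressor (adjusted p = 0.00199) and did not pass against GmZF392 (adjusted p = 0.209). All 3 genes were higher in every GmNFYA overexpressor library than in any wild-type library.

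On chromosome 17, Glyma.17G065100 had 12.8, 11.9 and 12.2 CPM in the GmNFYA overexpressor, against 3.09, 2.9 and 3.42 CPM in the wild type (log2 1.97, SE 0.19, adjusted p = 5.5e-05), and its neighbour Glyma.17G065300 had 30.9, 25.3 and 28.9 CPM in the GmNFYA overexpressor, against 13.4, 11.96 and 11.4 CPM in the wild type (log2 1.21, SE 0.16, adjusted p = 8.6e-04). Glyma.17G065100 was also higher than in the GmZF351 overexpressor (adjusted p = 0.00468). The third gene there, Glyma.17G065400, lost its call without either of 2 libraries of each genotype (adjusted p up to 0.113). On chromosome 1, Glyma.01G043951 had 9.48, 7.58 and 7.18 CPM in the GmNFYA overexpressor, against 0.981, 0.634 and 0.662 CPM in the wild type (log2 3.40, SE 0.26, adjusted p = 5.9e-06), and Glyma.01G043400 had 10.7, 12.1 and 10.3 CPM in the GmNFYA overexpressor, against 3.24, 3.04 and 3.03 CPM in the wild type (log2 1.83, SE 0.19, adjusted p = 9.1e-05). The call of Glyma.01G043700 between them ended without wild-type library 1 or 2 or GmNFYA overexpressor library 2 or 3 (adjusted p up to 0.136). The second run that fell lies on chromosome 20, where Glyma.20G158500 had 0.871, 0.889 and 0.748 CPM in the GmNFYA overexpressor, against 13.05, 13.9 and 14.8 CPM in the wild type (log2 -4.05, SE 0.27, adjusted p = 2.1e-06). Glyma.20G158000 beside it had 2.2, 1.67 and 2.2 CPM in the GmNFYA overexpressor, against 7.6, 6.57 and 5.85 CPM in the wild type (log2 -1.72, SE 0.27, adjusted p = 0.00409), while the call of Glyma.20G158200 ended without any of the 6 libraries (adjusted p from 0.089 to 0.21).

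The remaining runs were on chromosome 18, with Glyma.18G068800, Glyma.18G069300 and Glyma.18G069802, and on chromosome 8, with Glyma.08G260500, Glyma.08G260800 and Glyma.08G261500. Glyma.18G069802, at 0 in the wild type, had 2.41, 2.25 and 2.34 CPM in the GmNFYA overexpressor, against 0, 0 and 0 CPM in the wild type, at least 15.6-fold higher (adjusted p = 3.1e-05). Glyma.18G068800 had 40.7, 33.3 and 29.4 CPM in the GmNFYA overexpressor, against 12.1, 13.6 and 13.96 CPM in the wild type (log2 1.38, SE 0.17, adjusted p = 5.9e-04). Glyma.18G069300 lost its call when any wild-type library was left out (adjusted p up to 0.0621), and that of Glyma.08G260500 without wild-type library 2 (adjusted p = 0.0574).

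Lists of genes with a symbol are described by their counts, beside which among all tested genes 0.966% rose and 0.599% fell. WRKY transcription factors act in stress and defence responses and in senescence. Of 39 tested WRKY genes 5 rose and 0 fell, and 31 had a positive fold change, against 48.7% of all tested genes. Their fold changes ran from -1.91 to 2.56 on the log2 scale with a median of 0.27, against -0.0090 for all tested genes. WRKY49 had 7.53, 7.37 and 6.49 CPM in the GmNFYA overexpressor, against 1.42, 1.68 and 1.49 CPM in the wild type (log2 2.21, SE 0.22, adjusted p = 7.0e-05). WRKY55 had 2.61, 2.51 and 1.996 CPM in the GmNFYA overexpressor, against 0.491, 0.362 and 0.331 CPM in the wild type (log2 2.56, SE 0.31, adjusted p = 5.2e-04), and WRKY47 had 21.98, 21.2 and 20.4 CPM in the GmNFYA overexpressor, against 7.85, 10.9 and 11.97 CPM in the wild type (log2 1.05, SE 0.16, adjusted p = 0.00347). In these 3 genes the genotypes did not overlap. WRKY39 and WRKY5 also rose, but their calls ended without each of several libraries (adjusted p up to 0.108 for WRKY39 and 0.166 for WRKY5). The member highest in CPM, WRKY22, stood at 54.9 CPM in the GmNFYA overexpressor and 69.8 CPM in the wild type and did not pass (adjusted p = 0.235). None of the 5 differed from a zinc finger overexpressor.

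NAC transcription factors include regulators of senescence and stress, and 2 of 19 tested rose. NAC021 had 66.6, 60.7 and 61.1 CPM in the GmNFYA overexpressor, against 25.1, 26.8 and 31.4 CPM in the wild type (log2 1.18, SE 0.17, adjusted p = 0.00193), with the genotypes well apart. The other, NAC2, lost its call without any of the wild-type libraries or without GmNFYA overexpressor library 2 or 3 (adjusted p up to 0.128). The median of the list was 0.06. Of 88 genes in the MYB list 2 rose, MYB177 and MYB124, and 1 fell, MYB205, with a median of -0.08, and each of these 3 calls ended without 1 or more libraries (adjusted p up to 0.0713, 0.179 and 0.119). Of 82 bZIP genes ABI5 and STF-3 rose and both calls ended in the same way (adjusted p up to 0.167 and 0.0869). None of 27 MADS and flowering genes passed with edgeR, where 6 had an unadjusted p below 0.05.

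Further genes with a symbol that rose were NRP-A, HS1pro1 and ACS1. NRP-A, an asparagine-rich protein of the cell-death response to osmotic and endoplasmic reticulum stress, had 32.8, 27.5 and 31.6 CPM in the GmNFYA overexpressor, against 7.997, 9.06 and 8.83 CPM in the wild type (log2 1.83, SE 0.15, adjusted p = 1.1e-05). HS1pro1, named for a nematode resistance gene of beet, had 3.89, 6.27 and 5.69 CPM in the GmNFYA overexpressor, against 1.18, 1.22 and 1.71 CPM in the wild type (log2 1.95, SE 0.32, adjusted p = 0.00537), and ACS1, from the hormone list, had 18.8, 19.1 and 16.7 CPM in the GmNFYA overexpressor, against 6.33, 4.17 and 5.9 CPM in the wild type (log2 1.74, SE 0.17, adjusted p = 7.9e-05). In each of these genes the lowest library of the GmNFYA overexpressor was above the highest of the wild type. NRP-A was also higher than in the GmZF351 overexpressor (adjusted p = 0.0307), while HS1pro1 and ACS1 passed against neither zinc finger overexpressor.

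Of 13 storage globulin and albumin genes, for the main proteins of the seed, 5 rose and 0 fell, with a median of 0.81, where among all tested genes 0.966% rose and 0.599% fell with a median of -0.0090. Of 8 protease inhibitor, lectin and allergen genes 2 rose, with a median of 0.49. GY4, a glycinin gene, had 21.1, 16.9 and 17.6 CPM in the GmNFYA overexpressor, against 2.26, 2.13 and 1.43 CPM in the wild type, and was lower than in the GmZF392 overexpressor (adjusted p = 0.0041). GY3, another glycinin gene, rose at a low level, with 2.15, 1.88 and 1.5 CPM in the GmNFYA overexpressor, against 0.294, 0.227 and 0.441 CPM in the wild type (log2 2.52, SE 0.41, adjusted p = 0.0046). CG-1, a storage globulin gene, averaged 1757 CPM in the GmNFYA overexpressor and 591 CPM in the wild type (log2 1.57, SE 0.13, adjusted p = 1.7e-05). It stood at 1742 CPM under GmZF351 overexpression and 2337 CPM under GmZF392 overexpression, and passed against neither (adjusted p = 0.975 and 0.246). KTI1, a trypsin inhibitor gene, averaged 32.2 CPM in the GmNFYA overexpressor and 3.03 CPM in the wild type (log2 3.42, SE 0.25, adjusted p = 4.7e-06). CG-1 and KTI1 were called under each alternative. GY2 averaged 118 CPM in the GmNFYA overexpressor and 28.1 CPM in the wild type. It was lower than in the GmZF392 overexpressor (211 CPM, adjusted p = 0.0158) and did not pass against GmZF351 (139 CPM, adjusted p = 0.544). GY1 averaged 142 CPM in the GmNFYA overexpressor and 34.6 CPM in the wild type. It passed against neither GmZF351 (216 CPM, adjusted p = 0.347) nor GmZF392 (314 CPM, adjusted p = 0.0514). KTI1 was also higher than in the GmZF351 overexpressor (adjusted p = 0.015) and did not pass against GmZF392 (adjusted p = 0.701). P34, an allergen gene, rose and lost its call without 5 of the 6 libraries (adjusted p up to 0.211). It was lower than in both zinc finger overexpressors (adjusted p = 0.00478 against GmZF351 and 0.00412 against GmZF392).

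None of the 35 tested genes in the 3 oil lists passed the threshold against the wild type, and oil genes known only by a Glyma identifier were not looked for. With edgeR 0 of 13 fatty acid synthesis genes passed, while 12 had a positive fold change and 5 an unadjusted p below 0.05, and their median was 0.20. ACCC-2, for a subunit of the plastid acetyl-CoA carboxylase that starts fatty acid synthesis, stood at 257 CPM in the GmNFYA overexpressor and 183 CPM in the wild type (log2 0.49, adjusted p = 0.122). Of 5 triacylglycerol and oil body genes 0 passed with edgeR and 2 had an unadjusted p below 0.05. The oleosin gene P89 averaged 1119 CPM in the GmNFYA overexpressor and 658 CPM in the wild type (log2 0.77, adjusted p = 0.317) and P91 1078 CPM in the GmNFYA overexpressor and 679.8 CPM in the wild type (log2 0.66, adjusted p = 0.443). Of 17 desaturase genes 0 passed with edgeR and 5 had an unadjusted p below 0.05, with a median of 0.06. Late embryogenesis genes, which protect the drying embryo, gave 0 calls of 23 with edgeR and 5 with an unadjusted p below 0.05, with a median of 0.36.

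The aquaporin, cell wall, and proanthocyanidin and flavonoid lists had negative medians, as had the photosynthesis list below and MADS and flowering genes (-0.14, with 10 of 27 positive). Of 35 aquaporin genes, for water channels, 6 had a positive fold change, and the median was -0.18. None passed with edgeR, and 4 had an unadjusted p below 0.05. PIP1-7, the highest in CPM, stood at 788 CPM in the GmNFYA overexpressor and 809.5 CPM in the wild type (adjusted p = 0.958), and PIP2-1 at 512 CPM in the GmNFYA overexpressor and 583 CPM in the wild type (adjusted p = 0.702). Of 16 cell wall genes 0 passed with edgeR and 5 had an unadjusted p below 0.05, with a median of -0.26. Of 25 proanthocyanidin and flavonoid genes 2 fell and 0 rose, with a median of -0.16. LAR1, for the leucoanthocyanidin reductase of proanthocyanidin synthesis, had 24.2, 18.7 and 21.8 CPM in the GmNFYA overexpressor, against 188, 189 and 161 CPM in the wild type, and did not differ from the zinc finger overexpressors (adjusted p = 0.968 against GmZF351 and 0.676 against GmZF392). The call of CHS8, a chalcone synthase gene, ended without any of the 6 libraries (adjusted p up to 0.199).

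**Figure D5:**
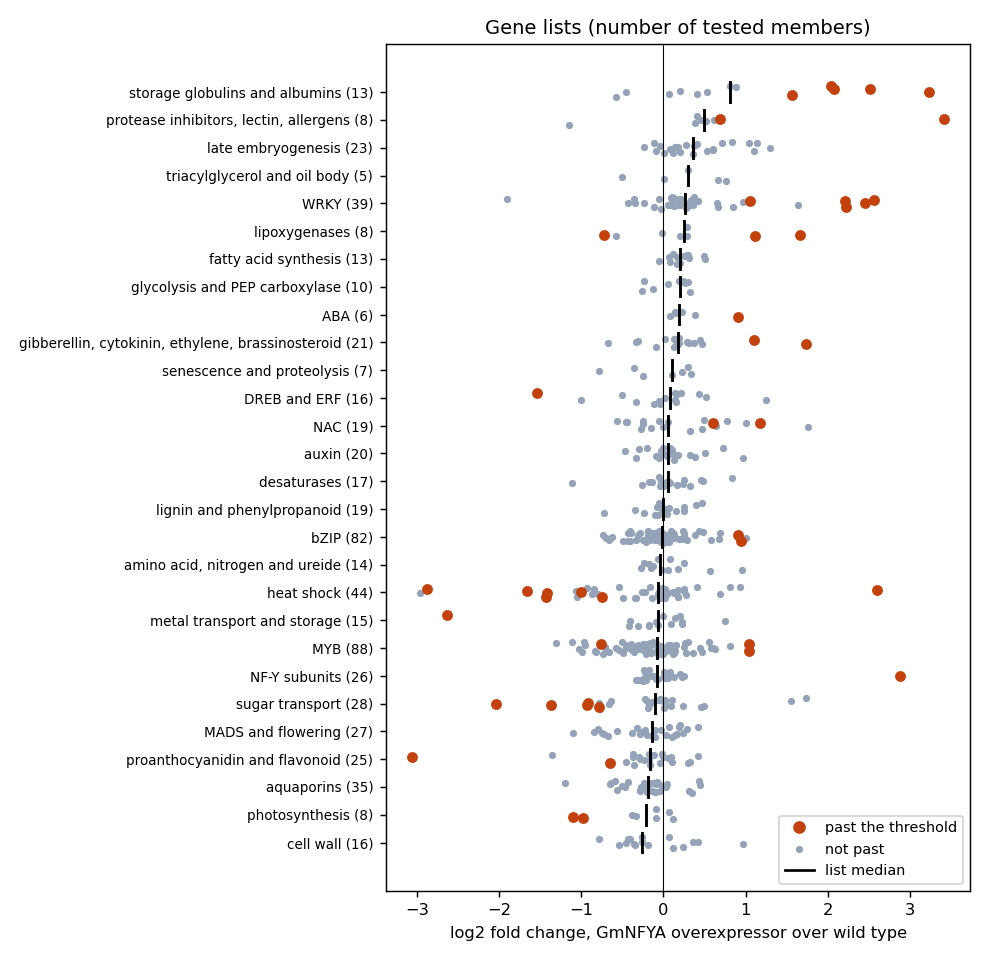
Log2 fold change of each tested member (points) by gene list, with the list median as a black bar and the number of tested members in brackets. Orange points passed the threshold and grey points did not, so that the WRKY and storage lists show orange points to the right and the sugar transport list 5 to the left.

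Of 44 heat shock genes 6 fell and 1 rose, with a median of -0.06, where among all tested genes 0.966% rose and 0.599% fell. The families within the list differed. Of 14 genes with an HSP symbol 4 fell and 0 rose, with a median of -0.82. Of 27 heat shock factors (HSF) 2 fell and 1 rose, with a median of 0.03. HSP23.9 averaged 19.0 CPM in the GmNFYA overexpressor and 60.1 CPM in the wild type (log2 -1.66, SE 0.18, adjusted p = 1.3e-04). It did not pass against GmZF351 (adjusted p = 0.759) or GmZF392 (adjusted p = 0.354). Apart from the factors above, HSP90A1, a cytosolic chaperone gene, had 1.69, 3.19 and 3.04 CPM in the GmNFYA overexpressor, against 13.6, 24.7 and 20.1 CPM in the wild type, and did not pass against the zinc finger overexpressors (adjusted p = 0.891 against GmZF351 and 0.227 against GmZF392). Of 8 photosynthesis genes 2 fell, RCA11 for rubisco activase and LHCB1-7 for a light-harvesting protein, with a median of -0.21. RCA11 lost its call without any of the 6 libraries (adjusted p up to 0.151), and LHCB1-7 without 4 of them (adjusted p up to 0.1).

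The sugar transport list gave 5 genes that fell and 0 that rose of 28, with a median of -0.10, where 0.599% of all tested genes fell. All 5 were SWEET genes, which make up 24 of the 28 tested. In the metal transport list DMT1 was the 1 of 15 that fell (median -0.07), and in the DREB and ERF list DREB1 the 1 of 16 (median 0.08). Of 8 lipoxygenase genes 2 rose and 1 fell (median 0.25), of 6 abscisic acid genes ABI5 rose (median 0.18), and of 21 genes of other hormones ACS1 and ACS rose (median 0.18). The call of ACS ended without wild-type library 2 or 3 (adjusted p = 0.0633 and 0.0611).

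Further lists with no call by edgeR were auxin (20 tested, 4 with an unadjusted p below 0.05), lignin and phenylpropanoid (19 and 1), amino acid, nitrogen and ureide (14 and 0), glycolysis and PEP carboxylase (10 and 1), senescence and proteolysis (7 and 1) and sucrose and starch enzymes (2 and 1). Their medians were 0.06, -0.00058, -0.04, 0.20, 0.11 and 0.24 on the log2 scale, in that order.

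Among the most abundant genes that differed, Glyma.13G035200 (chromosome 13, 9990949 to 9997473, plus strand) rose most. It had 929, 1284 and 1264 CPM in the GmNFYA overexpressor, against 240.4, 313 and 267 CPM in the wild type (log2 2.08, SE 0.22, adjusted p = 1.4e-04), and its level in the zinc finger overexpressors was similar, at 1493 ± 396 CPM under GmZF351 overexpression and 1074 ± 175 CPM under GmZF392 overexpression. Glyma.16G018900 had 759, 627 and 594 CPM in the GmNFYA overexpressor, against 368, 348 and 369 CPM in the wild type (log2 0.87, SE 0.17, adjusted p = 0.0199), and Glyma.13G168700 had 515, 565 and 545 CPM in the GmNFYA overexpressor, against 337, 352 and 323 CPM in the wild type (log2 0.68, SE 0.13, adjusted p = 0.0172). These genes did not overlap between the genotypes, but the calls of the last 2 each ended without 5 of the 6 libraries (adjusted p up to 0.108 and 0.1). Glyma.15G026400 had 439, 519 and 487 CPM in the GmNFYA overexpressor, against 233, 294 and 276 CPM in the wild type, and was higher than in the GmZF392 overexpressor (adjusted p = 0.00724), with a call against the wild type that ended without 5 libraries (adjusted p up to 0.123). Glyma.01G132500 fell, with 1016, 1144 and 1221 CPM in the GmNFYA overexpressor, against 1715, 1948 and 1838 CPM in the wild type, and lost its call without any of the 6 libraries (adjusted p up to 0.195).

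The genes of the tissue marker lists that passed were all counted in the lists above, so these sums are no separate evidence. Of 15 embryo markers 5 rose, GY1, GY2, GY3, GY4 and CG-1, all storage globulin genes, and 0 fell, where among all tested genes 0.966% rose and 0.599% fell. The embryo regulators LEC1-A, LEC1-B, ABI3-1 and ABI3-2 did not pass (log2 0.05 to 0.23, adjusted p from 0.535 to 0.934). The summed embryo level ran from 4584 to 5730 CPM in the GmNFYA overexpressor and from 2219 to 3320 CPM in the wild type. CG-1, P89 and P91 weighed most in it, with 1757, 1119 and 1078 CPM in the GmNFYA overexpressor. In the wild type they had 591, 658 and 680 CPM, and P89 and P91 did not pass (adjusted p = 0.317 and 0.443). Of 13 seed coat markers 4 fell, SWEET10, SWEET15, CHS8 and LAR1, and 0 rose, while the peroxidase genes PRX2 and PRX3 stood at log2 -0.07 and -0.02 and HPS at 0.87 without passing, with sums of 4837 to 5340 CPM in the GmNFYA overexpressor and 5326 to 5986 CPM in the wild type. PRX2 and PRX2B weighed most in the seed coat sums, with 2834 and 1332 CPM in the GmNFYA overexpressor. In the wild type they had 2983 and 1428 CPM, and neither passed (adjusted p = 0.891 and 0.813). Of 5 vegetative or pod markers LHCB1-7 fell. The sums of these 5 were 1260 to 1859 CPM in the GmNFYA overexpressor and 1765 to 2142 CPM in the wild type. The sum of the 2 endosperm markers was 8.62 to 10.1 CPM in the GmNFYA overexpressor and 7.28 to 8.29 CPM in the wild type, and neither passed. The part of tissue proportions in the results was not tested.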

How the data were processed

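RNA from soybean seeds was sequenced in 12 libraries, and the 3 of the GmNFYA overexpressor were compared with the 3 of the wild type. The authors deposited 1 table of raw counts per gene, made with featureCounts 2.0.1 as paired fragments over exons of the Wm82.a4.v1 annotation, per the file header, which names no strand option. HISAT2 and DESeq2 are listed without versions, per the submitters' processing notes.

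Genes were filtered with filterByExpr (minimum count 10, minimum total 15) and fitted with edgeR 4.0.16 in R 4.3.3 (TMM, robust quasi-likelihood, all 12 libraries in 1 fit, limma 3.58.1 installed), with Benjamini-Hochberg adjustment and a threshold of 0.05. The fit was tested on simulated data of this comparison over 33911 genes. At 2-fold it found 44 of 100 altered genes, at 4-fold 89 of 100, and 8 of its 141 calls were false. The simulated libraries were drawn independently, with no shift of library 1 and no trend with exon length. These rates may therefore not hold for the real libraries. Alternatives were DESeq2 1.42.0, its size factors, no filter, a minimum count of 30, the 6 libraries alone, a replicate block, exon-length offsets, a non-robust fit and leaving out each library.

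Symbols came from RefSeq (Glycine_max_v4.0), paired by a shared span of at least 50%, which paired 38292 of 47095 genes (81.3%), 2203 of them with a symbol. Coordinates are those of the deposited table. Named genes were those of the nuclear factor Y list, the strongest 12 per direction with and without a symbol at 5 CPM or more, the 5 of lowest p without a symbol, list members that passed or were highest in CPM, the 5 highest in CPM that passed, and members of runs. The genes and lists were chosen with earlier results of these data known, and symbols of another gene kind were taken out of the lists after they were seen. No sequence is shown, since promoter and protein sequences were not used here.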

Additional observations from a re-analysis of the deposited data

How the results depend on the processing

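The count of 536 genes was 1012 with the DESeq2 Wald test, 815 with exon-length offsets and 300 to 385 without 1 library. Genes higher, 331, became 588 with the Wald test and 191 to 256 without 1 library. Genes lower, 205, became 424 with the Wald test, 342 with exon-length offsets and 99 to 139 without 1 library. The Wald test shared 535 of the 536 calls and exon-length offsets 507. Genes called at 2-fold or more, 361, stayed within 1.5 times under each alternative run, with 249 to 295 without 1 library. Genes above both zinc finger overexpressors, 24, became 50 with the Wald test and 11 to 22 without 1 library of any genotype. Genes below both, 35, became 67 with the Wald test, 55 with exon-length offsets and 20 to 35 without 1 library. The cause of these shifts was not tested. The log2 fold change of NF-YA02 lay between 2.83 and 2.98 and was called under each alternative.

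Of 113 named genes that passed, 81 passed under each alternative that tested them, and none changed direction. Many of the named genes were chosen for a large fold or a low p in these same data. Their share therefore does not describe the calls in general. Of all 536 calls, 245 were kept in all 6 fits that each left out a library. Among the named genes the largest loss was 30 calls, without wild-type library 2. Whether replicate numbers pair the samples was not settled. Correlations of deviations were 0.418, 0.298 and 0.019 for same-numbered libraries, and from -0.454 to 0.367 for libraries of different numbers. The main fit used no pairing, and the replicate block called 510 genes, 480 of them shared with the main fit. Depth limits genes near the floor of 0.136 to 0.166 CPM, and 3 libraries against 3 recovered 44 of 100 simulated 2-fold changes. The planned comparisons of promoter motifs and of protein similarity were not run.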

Other observations

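Genes outside the rule for named genes, chosen after their values were seen, add receptor, hormone and metabolic genes. GASA26, also described here, was named by the rule. CRK62, for a cysteine-rich receptor-like kinase, had 1.64, 0.784 and 1.15 CPM in the GmNFYA overexpressor, against 0.0491, 0 and 0.11 CPM in the wild type (adjusted p = 0.00125). CRK48 of the same family also rose (adjusted p = 0.00786), with an adjusted p of 0.0508 without wild-type library 2. In the family 2 of 31 tested members rose, where 0.966% of all tested genes rose, and the median log2 fold change was -0.04, against -0.0090 for all tested genes. CYP707A1A, of the family of enzymes that break down abscisic acid, had 0.973, 0.784 and 0.998 CPM in the GmNFYA overexpressor, against 0.0981, 0.181 and 0.0552 CPM in the wild type (log2 2.93, SE 0.50, adjusted p = 0.00651). RJ2, the soybean gene of nodulation specificity, had 3.79, 2.61 and 2.39 CPM in the GmNFYA overexpressor, against 0.638, 0.589 and 0.386 CPM in the wild type (log2 2.42, SE 0.35, adjusted p = 0.00209). In CRK62, CYP707A1A and RJ2 each overexpressor library was above each wild-type library, at levels of a few CPM or less.

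SRC2, named for its response to cold in soybean, had 36.7, 36.4 and 36.97 CPM in the GmNFYA overexpressor, against 16.4, 14.3 and 14.2 CPM in the wild type (log2 1.30, SE 0.13, adjusted p = 6.2e-05). Glyma.10G028300, with the RefSeq synonym sbp, had 339.6, 320.0 and 333 CPM in the GmNFYA overexpressor, against 176, 167 and 168 CPM in the wild type (log2 0.96, SE 0.13, adjusted p = 0.00126), and was lower than in the GmZF392 overexpressor (adjusted p = 0.0101). Glyma.18G043600, with the synonym GAD, had 50.9, 71.7 and 71.6 CPM in the GmNFYA overexpressor, against 22.96, 32.8 and 31.4 CPM in the wild type (log2 1.15, SE 0.21, adjusted p = 0.0119) and was higher than in both zinc finger overexpressors (adjusted p = 0.039 against GmZF351 and 0.00834 against GmZF392). It lost its call against the wild type when library 1 of the wild type was left out (adjusted p = 0.07) and without GmNFYA overexpressor library 2 or 3 (adjusted p = 0.0658 and 0.0594).

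Among genes that fell, MIPS4, for a synthase of inositol phosphate, had 0.359, 0.261 and 0.15 CPM in the GmNFYA overexpressor, against 1.47, 1.36 and 2.76 CPM in the wild type (log2 -2.82, SE 0.44, adjusted p = 0.00342) and was lower than in both zinc finger overexpressors (adjusted p = 0.0181 against GmZF351 and 0.00327 against GmZF392). GASA26, of a family of gibberellin-regulated small proteins, had 3.84, 4.97 and 5.59 CPM in the GmNFYA overexpressor, against 10.2, 11.9 and 9.16 CPM in the wild type (log2 -1.12, SE 0.18, adjusted p = 0.00403). It was the 1 of 26 tested family members that fell, and the median of the family was -0.40 on the log2 scale. Its level differed between the zinc finger overexpressors, with 7.33 ± 0.228 CPM under GmZF351 overexpression and 26.1 ± 4.31 CPM under GmZF392 overexpression.

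Further genes at or near 0 in 1 genotype were Glyma.03G065700, with 0, 0 and 0 CPM in the GmNFYA overexpressor, against 4.66, 3.9 and 5.3 CPM in the wild type, at least 30.1-fold lower (adjusted p = 5.7e-04), and Glyma.13G034000, with 0, 0 and 0 CPM in the GmNFYA overexpressor, against 5.54, 3.35 and 5.24 CPM in the wild type, at least 30.7-fold lower (adjusted p = 5.2e-05). Both stood at or near 0 in the zinc finger overexpressors as well. Glyma.02G090600 was low only in the GmNFYA overexpressor of the 4 genotypes. It had 0.205, 0 and 0.0499 CPM in the GmNFYA overexpressor, against 4.46, 2.99 and 3.2 CPM in the wild type (log2 -5.28, SE 0.51, adjusted p = 5.5e-05), and 4.13 ± 0.187 CPM under GmZF351 overexpression and 4.57 ± 1.41 CPM under GmZF392 overexpression (adjusted p = 6.5e-05 against GmZF351 and 3.1e-05 against GmZF392). Glyma.06G319800 showed the opposite, with 1.59, 2.35 and 2.49 CPM in the GmNFYA overexpressor, against 0.147, 0.0906 and 0.0552 CPM in the wild type (log2 4.35, SE 0.63, adjusted p = 0.00192), and 0.249 ± 0.17 CPM under GmZF351 overexpression and 0.0877 ± 0.0826 CPM under GmZF392 overexpression (adjusted p = 0.0148 against GmZF351 and 0.00213 against GmZF392).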
